A study of Mus musculus with 6 samples.

Results

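The 10 genes described here encode proteins of the synaptic vesicle and of its fusion with the presynaptic membrane: Snap25, Vamp2, Stx1a, Syt1, Cplx1, Rab3a, Syp, Syn1, Sv2a and Slc17a6. They were chosen by name for their known roles, but with earlier results of these data known. Shares over all genes given below are therefore description only. All 10 were found among the 49164 genes with counts. RNA from the nasal conchae, labelled olfactory epithelium, was sequenced in bulk from 6 mice labelled male and aged 3 months, each a c57Bl6/ICR crossbred, and 200 ng of RNA from each mouse went into its library. The 3 control mice are labelled WT, untreated and with a normal olfactory bulb. The 3 sFlt1 mice came from a cross of camk2a-tTa with tet-sFlt1 animals, in which soluble Flt1, a decoy receptor for VEGF, is switched on by taking tetracycline away, here at embryonic day 13.5. Their bulbs measured 28%, 29% and 14% of the normal size by MRI at 2 months in replicates 1, 2 and 3. The question the design poses is what differs in the nose when the bulb, the target of its neurons, is small. The Camk2a promoter is chiefly active in forebrain neurons, so its driver does not limit the transgene to the bulb.

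As background, a synaptic vesicle is filled with transmitter by a transporter, held near the membrane by Rab and synapsin proteins, and fused by the SNARE complex, in which Vamp2 on the vesicle zippers with Snap25 and Stx1a on the plasma membrane. Syt1 senses the calcium that triggers fusion, and Cplx1 binds the assembled SNAREs. Olfactory sensory neurons make messenger RNAs for such proteins in their cell bodies in the epithelium. The proteins work at axon terminals in the glomeruli of the olfactory bulb. Which genes of the set these neurons express was not tested here.

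Library totals ran from 28832424 to 46444862 counts, and counts were scaled to CPM, the count relative to the library's total, with TMM factors, which adjust for composition. Flt1, the gene behind the transgene, was at 3.71, 2.81 and 11.1 CPM in control replicates 1, 2 and 3 and at 6.42, 2.36 and 9.79 CPM in sFlt1 replicates 1, 2 and 3. The groups overlapped, and reads of the transgene cannot be told from those of the mouse gene in these counts. Omp, the marker of mature olfactory sensory neurons, was at 2836 CPM or more in every control and at 466 CPM or more in every sFlt1 library. Control replicate 3 stood apart by transcripts of brain neurons: the summed level of 22 bulb and brain neuron markers was 3198 CPM there, against 614 and 561 CPM in the other controls and 458, 439 and 629 CPM in sFlt1 replicates 1, 2 and 3. None of these markers was at a count of 0 in any library. The sum of 12 central glia markers was 3505 CPM in control replicate 3 and 2426 CPM in sFlt1 replicate 3, and from 838 to 1259 CPM in the other libraries. Xist had 23933 counts in control replicate 1 and 22785 in sFlt1 replicate 3, and 17 or fewer in the other libraries, although all mice are labelled male.

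Promoter windows of 8 of the 10 genes, from 250 bases before to 50 after the annotated start, were available as 11 windows of RefSeq (GRCm38.p6). Among them were those of Syn1, one of the genes with the lowest values in sFlt1 mice relative to controls, of Stx1a, the 1 gene of the set without a lower estimate, and of Slc17a6, the vesicular transporter whose profile lay nearest that of mature sensory neuron markers. The Syn1 window (chrX:20920869-20921168, minus strand), the Stx1a window (chr5:135023232-135023531, plus strand) and the upstream of the Slc17a6 windows (chr7:51621580-51621879, plus strand) read as follows, 5′ to 3′ on the strand of the gene, with capitals for matches to the 5 motifs searched on both strands.
Syn1: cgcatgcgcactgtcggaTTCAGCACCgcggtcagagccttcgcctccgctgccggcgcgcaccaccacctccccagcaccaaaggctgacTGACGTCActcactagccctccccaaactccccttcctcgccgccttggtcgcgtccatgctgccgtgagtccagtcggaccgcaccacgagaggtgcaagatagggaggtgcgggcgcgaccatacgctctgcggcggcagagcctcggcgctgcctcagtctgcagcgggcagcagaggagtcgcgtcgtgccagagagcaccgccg
Stx1a: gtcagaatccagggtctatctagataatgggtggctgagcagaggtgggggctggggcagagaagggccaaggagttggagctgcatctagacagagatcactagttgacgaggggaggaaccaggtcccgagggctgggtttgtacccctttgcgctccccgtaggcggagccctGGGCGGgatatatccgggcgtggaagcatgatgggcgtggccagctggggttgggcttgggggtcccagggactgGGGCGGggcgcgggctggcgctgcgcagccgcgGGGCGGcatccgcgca
Slc17a6: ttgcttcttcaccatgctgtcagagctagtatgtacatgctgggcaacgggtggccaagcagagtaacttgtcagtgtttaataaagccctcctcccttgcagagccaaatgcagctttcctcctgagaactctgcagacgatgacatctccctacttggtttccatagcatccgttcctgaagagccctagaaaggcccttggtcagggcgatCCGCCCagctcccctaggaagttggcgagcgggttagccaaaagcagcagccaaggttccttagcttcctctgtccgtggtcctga
In Syn1 the capitals mark TTCAGCACC, a part of the site of the repressor Rest, and TGACGTCA, the cAMP response element. TTCAGCACC is in 0.371% of all 32851 windows and TGACGTCA in 1.79%, and of the set only Syn1 holds either. In Stx1a they mark 3 copies of GGGCGG, the Sp1 motif, and in Slc17a6 its complement. GGGCGG is in 35.7% of all windows and in 7 of the 11 here, those of Cplx1, Rab3a, Slc17a6, Stx1a, Sv2a, Syp and Syt1. The palindromic motif of Ebf factors, in 0.904% of all windows, had 0 matches in the set. TAATTA, a homeodomain motif in 5.29% of all windows, was in the downstream Slc17a6 window. These are matches of letters and say nothing of binding. No window was searched for Snap25 or Vamp2.

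Across the set, 9 of the 10 genes had a lower estimate in sFlt1 mice (48.7% of all genes tested), the exception being Stx1a, and the median log2 fold change was -1.50. By edgeR's quasi-likelihood test 0 of them passed an adjusted p of 0.05, as did 0% of the 19899 genes tested, while 8 were lower at an unadjusted p under 0.05 against 6.24% of all genes, and 0 were higher at that p against 4.84%. By DESeq2, 5 of the 9 with an adjusted p were lower past it (1.56% of all genes): Snap25, Syt1, Rab3a, Syp and Syn1. The same 5 pass in the authors' deposited table, where 1.11% of genes are lower. All 3 sFlt1 libraries lay below all 3 controls for 8 of the genes, a pattern found in 9.51% of genes tested, and the other 2 were Stx1a and Sv2a. Without control replicate 3, edgeR gave 9 lower estimates (44.8% of all genes) with a median of -1.07. Of these, 6 were at an unadjusted p under 0.05 (3.87% of all genes), 0 genes of the set were higher at that p (2.37%), and 0 passed after adjustment. DESeq2 then called 1, Syn1 (adjusted p = 0.033, with 0.751% of all genes called lower). The count at an unadjusted p under 0.05 was 5 without sFlt1 replicate 1 (3.51% of all genes). In bulk RNA, fewer cells of a type and less RNA per cell cannot be told apart.

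**Figure D1:**
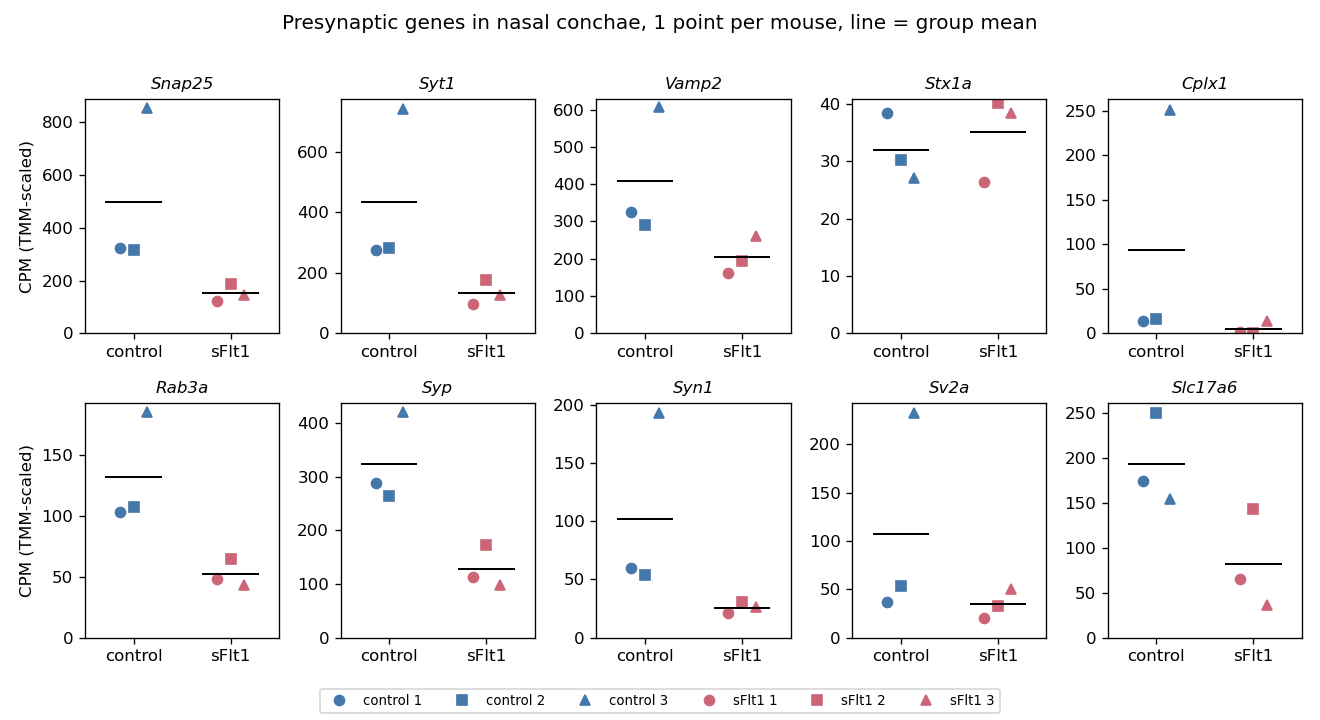
Level of each gene in CPM (y axis, from 0, with a scale for each panel) in the 3 control and 3 sFlt1 mice; each point is 1 mouse and the line is the group mean. Control replicate 3 (triangle) is the highest control for 8 genes, up to 853 CPM for Snap25, while Stx1a and Slc17a6 have it lowest.

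Snap25 and Stx1a are the plasma membrane SNAREs, partners in one complex, and only the first had separate groups. Gene positions are those of the deposited table, on GRCm39. Snap25 (ENSMUSG00000027273, chromosome 2, 136555373 to 136624348, GRCm39) was at 323, 315 and 853 CPM in control replicates 1, 2 and 3 and at 121, 186 and 147 CPM in sFlt1 replicates 1, 2 and 3. Every sFlt1 library was below every control, and control replicate 3 was far above the other controls. The log2 fold change was -1.72 (SE 0.44, adjusted p = 0.43 by edgeR and 0.028 by DESeq2), and without control replicate 3 it was -1.08 (SE 0.26, adjusted p = 0.80 by edgeR and 0.062 by DESeq2). Stx1a (ENSMUSG00000007207, chromosome 5, 135052336 to 135079954), whose promoter is printed above, was at 38.5, 30.2 and 27.1 CPM in the controls and at 26.5, 40.2 and 38.4 CPM in the sFlt1 mice. The groups overlapped fully, the lowest and the highest library both being sFlt1. Its log2 fold change was 0.14 (SE 0.24, adjusted p = 0.85 by edgeR) and 0.03 without control replicate 3. The vesicle SNARE Vamp2 (ENSMUSG00000020894, chromosome 11, 68979316 to 68983210) was at 325, 291 and 607 CPM in the controls and at 162, 193 and 262 CPM in the sFlt1 mice. These groups did not overlap, but the gap between the highest sFlt1 and the lowest control library was small beside the spread of the controls. Vamp2 had a log2 fold change of -0.99 (SE 0.34, adjusted p = 0.43 by edgeR and 0.22 by DESeq2), which was -0.58 (SE 0.28) without control replicate 3.

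The calcium sensor Syt1 (ENSMUSG00000035864, chromosome 10, 108333511 to 108846843) followed Snap25 closely. It was at 276, 283 and 744 CPM in the controls and at 97.5, 176 and 126 CPM in the sFlt1 mice, with no overlap. Its log2 fold change was -1.71 (SE 0.46, adjusted p = 0.43 by edgeR and 0.037 by DESeq2), and -1.07 (SE 0.29, DESeq2 adjusted p = 0.16) without control replicate 3. Cplx1 (ENSMUSG00000033615, chromosome 5, 108666420 to 108697890), the SNARE-binding complexin, had the widest range of the set as a ratio of highest to lowest library. It was at 14.4, 16.4 and 251 CPM in controls, from counts of 485, 460 and 11229, and at 1.90, 0.393 and 13.6 CPM in sFlt1 mice, from counts of 54, 18 and 592. Control replicate 3 held most of the control signal, and sFlt1 replicate 3, the other library rich in central glia transcripts, came close to the lowest control. Gad1, the GABA-synthesis enzyme of bulb interneurons, was high and low in the same libraries, with 27.4, 26.2 and 569 CPM in the controls and 2.46, 0.851 and 17.4 CPM in the sFlt1 mice. The log2 fold change of Cplx1 was -4.14 (SE 1.63, adjusted p = 0.44 by edgeR), with no p-value by DESeq2, before or after adjustment. It was -1.53 (SE 1.22) without control replicate 3. Without control replicate 3 and sFlt1 replicate 3, left out after seeing the data, it was -3.78 (SE 0.75). By edgeR that estimate had a p of 0.0033 before and 0.38 after adjustment. The log2 fold change was -6.42 (SE 1.94) without sFlt1 replicate 3 and -6.93 (SE 1.76) without the 2 libraries that had Xist reads.

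Rab3a, the small GTPase that ties vesicles to the active zone, and Syp, an abundant vesicle membrane protein, leaned less on control replicate 3. Rab3a (ENSMUSG00000031840, chromosome 8, 71207328 to 71211323) was at 103, 108 and 186 CPM in the controls and at 47.9, 64.8 and 43.4 CPM in the sFlt1 mice. All 3 sFlt1 values lay well under the lowest control. The log2 fold change was -1.35 (SE 0.29, adjusted p = 0.43 by edgeR and 0.020 by DESeq2) and -1.02 (SE 0.23, DESeq2 adjusted p = 0.084) without control replicate 3. Syp (ENSMUSG00000031144, chromosome X, 7504710 to 7519495) was at 287, 264 and 421 CPM in the controls and at 112, 171 and 97.4 CPM in the sFlt1 mice. Again no values overlapped, and sFlt1 replicate 2 was the highest of its group. Its log2 fold change was -1.35 (SE 0.30, adjusted p = 0.43 by edgeR and 0.016 by DESeq2), and -1.12 (SE 0.29, DESeq2 adjusted p = 0.12) without control replicate 3.

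Syn1 (ENSMUSG00000037217, chromosome X, 20726750 to 20787243), a synapsin that tethers vesicles to each other and to actin, was at 59.5, 54.0 and 193 CPM in the controls and at 21.1, 30.4 and 26.1 CPM in the sFlt1 mice. The sFlt1 libraries and the first 2 controls were each tightly grouped, with control replicate 3 far above both. The log2 fold change was -1.99 (SE 0.52, adjusted p = 0.43 by edgeR and 0.024 by DESeq2) and -1.14 (SE 0.23, adjusted p = 0.80 by edgeR and 0.033 by DESeq2) without control replicate 3. Araf and Timp1, on the opposite strand over parts of Syn1, had 16814 and 1790 counts in all. Araf had 2186, 2005 and 4166 counts in the controls and 1639, 3181 and 3637 in the sFlt1 mice. Timp1 had 246, 62 and 78 counts in the controls and 348, 439 and 617 in the sFlt1 mice. Whether counting used strand is not stated in the sources used here. Mpv17l2 likewise overlaps the end of Rab3a, with 3213 counts. Sv2a (ENSMUSG00000038486, chromosome 3, 96088467 to 96102837), the vesicle glycoprotein to which levetiracetam binds, was at 37.2, 53.6 and 232 CPM in the controls and at 20.4, 32.6 and 49.9 CPM in the sFlt1 mice. Here sFlt1 replicate 3 was above control replicate 1, so the groups overlapped. Sv2a had a log2 fold change of -1.65 (SE 0.72, adjusted p = 0.46 by edgeR), which was -0.40 (SE 0.40) without control replicate 3 and -2.42 without the 2 libraries that had Xist reads.

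Slc17a6 (ENSMUSG00000030500, chromosome 7, 51271754 to 51320867), the vesicular glutamate transporter VGLUT2 that olfactory sensory neurons use, was at 175, 251 and 155 CPM in the controls and at 65.8, 143 and 36.8 CPM in the sFlt1 mice. The groups did not overlap, and unlike most of the set it was lowest in control replicate 3 among the controls. Its log2 fold change was -1.24 (SE 0.49, adjusted p = 0.44 by edgeR) and -1.38 (SE 0.55, adjusted p = 0.80 by edgeR) without control replicate 3. Without sFlt1 replicate 2, the highest of its group, it was -1.92 (SE 0.37, adjusted p = 0.28 by edgeR). Other mice left out singly gave weaker or similar estimates. These were -0.89 (SE 0.40) without sFlt1 replicate 3 and -1.09 (SE 0.59) without sFlt1 replicate 1. They were -1.01 (SE 0.54) without control replicate 2 and -1.29 (SE 0.58) without control replicate 1. Slc17a6 did not pass in the authors' deposited table, which gives -1.25 with an adjusted p of 0.26. Omp had the same order of sFlt1 libraries, with 1317, 2366 and 466 CPM in replicates 1, 2 and 3.

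**Figure D2:**
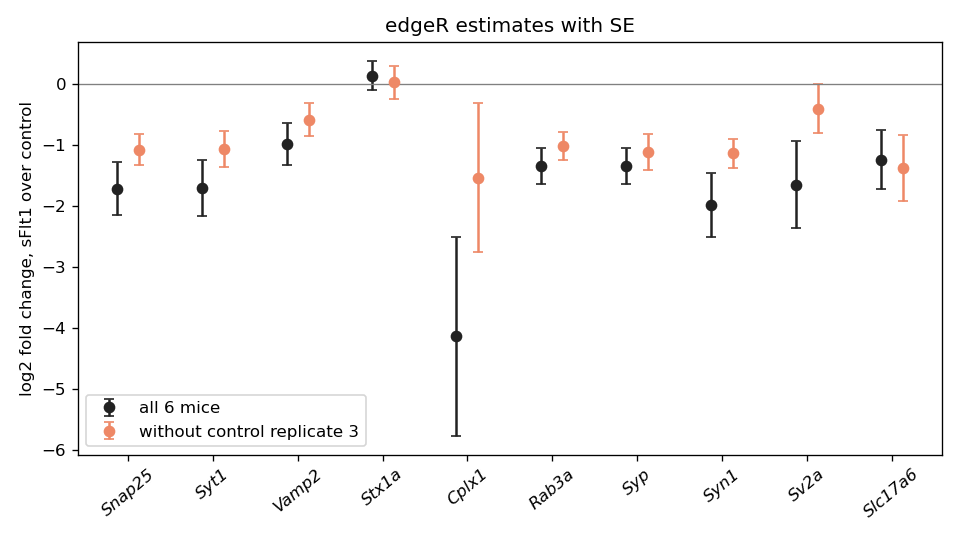
edgeR log2 fold change of sFlt1 over control (y axis) for each gene, with SE as bars, for all 6 mice and without control replicate 3. The estimate moves from -4.14 to -1.53 for Cplx1 and from -1.65 to -0.40 for Sv2a, and from -1.24 to -1.38 for Slc17a6.

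Transcript levels were set side by side per kilobase of exon, using exon lengths from GENCODE M21 (GRCm38). Per kilobase, controls had Vamp2 at 107 ± 45.5 CPM, Snap25 at 73.2 ± 45.4, Syp at 62.2 ± 16.2, Rab3a at 59.5 ± 20.9 and Syt1 at 52.1 ± 32.2 (SD, n = 3). Next came Cplx1 at 42.9 ± 62.2, Slc17a6 at 35.8 ± 9.41, Syn1 at 31.0 ± 23.9, Sv2a at 23.2 ± 23.3 and Stx1a at 12.0 ± 2.21 CPM per kilobase. No 2 neighbours in this order differed by more than the larger of their SDs, and Cplx1 was at 7.03 CPM per kilobase, the lowest of the set, as the mean of control replicates 1 and 2. In sFlt1 mice Vamp2 was highest at 54.0 ± 13.4 CPM per kilobase and Cplx1 lowest at 2.42 ± 3.31, and Stx1a, at 13.1 ± 2.80, stood above Syn1 at 7.83 ± 1.41 and Sv2a at 7.40 ± 3.19.

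The set differed within itself in how far control replicate 3 exceeded the other controls. Over the mean of control replicates 1 and 2, its level was 16.3 times as high for Cplx1, 5.12 for Sv2a, 3.41 for Syn1, 2.67 for Snap25 and 2.66 for Syt1. The ratio was 1.97 for Vamp2, 1.76 for Rab3a, 1.53 for Syp, 0.79 for Stx1a and 0.73 for Slc17a6. The median of 2.32 lay between that of the brain neuron markers, 11.8, and that of the mature sensory neuron markers, 0.74, and over all genes tested the median was 0.977. For 7 of the 10 genes control replicate 3 was over 1.5 times the higher of the other controls, which holds for 13.5% of genes tested. The part of brain tissue in these values was not tested.

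**Figure D3:**
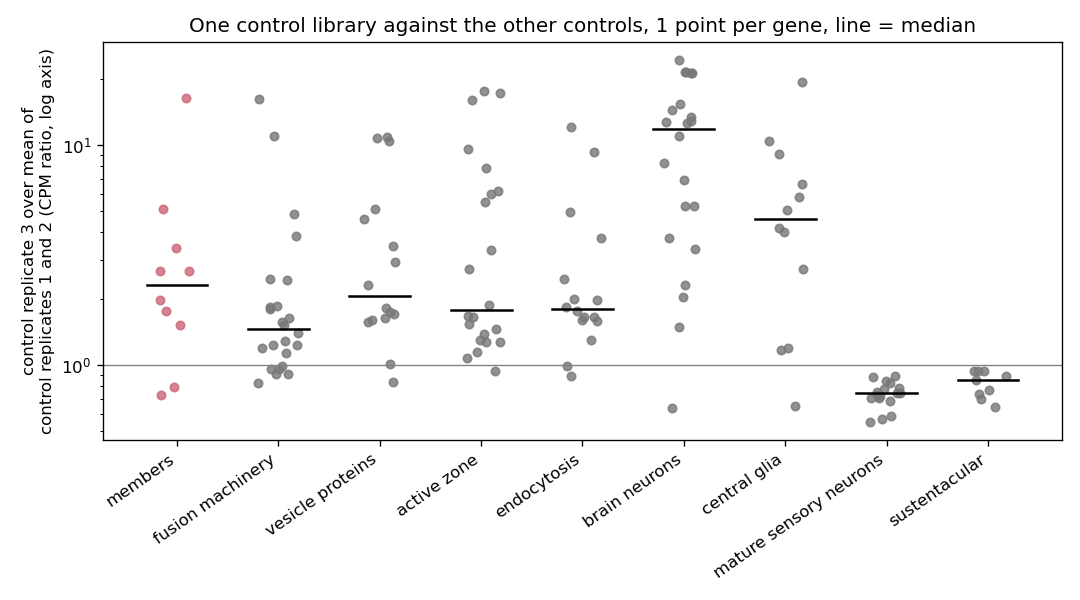
Ratio of the CPM in control replicate 3 to the mean of control replicates 1 and 2 (log y axis) for the genes of each list, 1 point per tested gene, with the list median as a line. The 10 presynaptic genes (first column, members) spread from 0.73 to 16.3 with a median of 2.32, beside medians of 0.74 for the mature sensory neuron markers and 11.8 for the brain neuron markers.

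Set against mature sensory neuron markers in the same library, 9 of the 10 genes had groups that overlapped, and 0 were lower without overlap against 0.533% of all genes tested. The mean log2 CPM of 17 such markers was 9.12 ± 0.26 in controls and 7.84 ± 0.92 in sFlt1 mice (SD, n = 3 each), a difference of -1.28 (exact permutation p = 0.1, two-sided, the smallest that 3 against 3 mice allow). After subtracting it, the sFlt1 minus control difference was -0.29 for Snap25, 0.34 for Vamp2, -0.30 for Syt1, -0.03 for Rab3a and -0.08 for Syp on the log2 scale. It was -0.46 for Syn1, 0.01 for Sv2a, -0.15 for Slc17a6 and -2.82 for Cplx1, and for all of these the groups overlapped (exact permutation p from 0.4 to 1). Stx1a alone did not overlap: relative to these markers it was at -3.96, -4.38 and -4.05 in controls and at -3.14, -3.41 and -1.63 in sFlt1 mice, a difference of 1.41 (exact permutation p = 0.1). Higher values without overlap relative to these markers were found for 47.4% of genes tested. Subtracting a reference that is lower in sFlt1 mice raises every gene, so the count of 0 lower tells little about the set. Without control replicate 3 the median over the 10 genes went from -0.12 to 0.33, and Stx1a was at 1.45. Against 11 markers of immature neurons instead, whose edgeR estimates had a median of 0.64, all sFlt1 values were below all controls for 9 of the 10 genes, all but Sv2a, and Stx1a was at -0.46. The same was seen for 26.9% of genes tested, and subtracting a reference that is higher in sFlt1 mice lowers every gene.

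**Figure D4:**
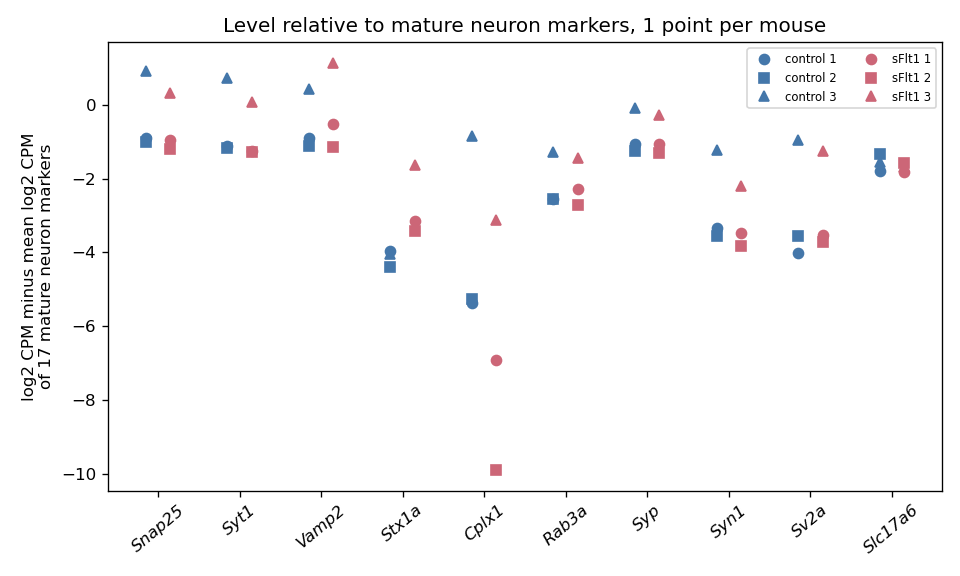
log2 CPM of each gene minus the mean log2 CPM of 17 mature neuron markers in the same library (y axis), 1 point per mouse. Slc17a6 lies in one narrow band across both groups, Stx1a is higher in all 3 sFlt1 mice with a difference of 1.41, and the triangles of replicate 3 stand highest in both groups for all genes but Stx1a and Slc17a6.

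Slc17a6 was the gene whose profile lay nearest the mean of the mature neuron markers, with a root mean square distance of 0.17 on the log2 scale over 6 libraries, and Cplx1 the farthest at 2.84. Syn1, Sv2a and Cplx1 were closer to the mean of the bulb and brain neuron markers, at 0.78, 0.73 and 1.34. Their distances from the mature neuron markers were 0.92, 1.24 and 2.84, and the other genes of the set were closer to those. Without control replicate 3 the genes closer to the brain neuron markers were Vamp2, Stx1a, Sv2a and Cplx1. Within the set the nearest profiles were those of Snap25 and Syt1 (0.070) and of Rab3a and Syp (0.12), and without control replicate 3 those of Snap25 and Syn1 (0.057, over 5 libraries). Outside it, Cacna1a, Map7d2, Sgip1, Olfr281 and Chgb lay nearest the mean profile of the set over 6 libraries, at 0.10, 0.13, 0.13, 0.15 and 0.17. Cacna1a encodes the pore of the P/Q-type presynaptic calcium channel. Without control replicate 3 the nearest included Mtss2, Camk2n2, Cacna1a and Clip4, at 0.055 to 0.10. These distances describe the libraries, which differ in brain transcripts and in mature neuron markers throughout.

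Paralogs of the set did not all go with their relatives. Snap23, the SNARE of non-neuronal cells, was at 24.4, 24.6 and 23.4 CPM in the controls and at 29.7, 24.0 and 25.2 CPM in the sFlt1 mice. The log2 ratio of Snap25 to Snap23 was 3.73, 3.67 and 5.18 in controls and 2.02, 2.95 and 2.54 in sFlt1 mice, without overlap. Rab3d, a secretory granule form, had an estimate of 0.41 (SE 0.19), against -1.39 (SE 0.31) for Rab3b and -1.97 (SE 0.97) for Rab3c, the last of which turned to 0.14 (SE 0.37) without control replicate 3. The ratios of Rab3a to Rab3d and of Syn1 to Syn3 were also lower in all sFlt1 mice. Each of these 3 had an exact permutation p of 0.1, and of the 14 pairs compared none was below 0.467 after Benjamini-Hochberg adjustment. Cplx2 contrasted with Cplx1 by its even controls, at 248, 249 and 246 CPM, and stood at 116, 171 and 158 CPM in the sFlt1 mice. Its log2 fold change was -0.74 with or without control replicate 3 (SE 0.20 and 0.25, edgeR adjusted p = 0.43 and 0.80). Syn2 had -1.82 (SE 0.39), Syn3 -0.53 (SE 0.40), Sv2b -1.28 (SE 0.36), Sv2c -1.09 (SE 0.46), Synpr -3.28 (SE 0.98), Vamp1 -0.10 (SE 0.21) and Syt2 -0.20 (SE 0.76). Without control replicate 3, Synpr was at -1.24 (SE 0.32) and Syt2 turned to 0.37 (SE 0.86). Slc17a7, the glutamate transporter of mitral cells and cortex, was at 11.4, 5.88 and 209 CPM in the controls and 2.74, 0.677 and 33.3 CPM in the sFlt1 mice, and its estimate of -2.62 (SE 1.74) was 0.51 (SE 1.43) without control replicate 3. Slc17a8 was too low to be tested.

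The wider presynaptic machinery, 82 tested genes in 5 lists, had 71 lower estimates, against 48.7% of all genes tested. Of these, 33 were at an unadjusted p under 0.05 by edgeR, against 6.24% of all genes, and 0 passed after adjustment. The median was -0.90 against 0.02 over all genes tested. Without control replicate 3, 60 were lower (44.8% of all genes) and 16 of them were at an unadjusted p under 0.05 (3.87%). The median was then -0.38, against 0.06 over all genes. These shares over all genes also stand beside the counts of each list that follows. Among 24 fusion proteins and regulators 19 were lower (10 at that p, median -0.47), and without control replicate 3 17 were (5 at that p, median -0.25). They included the SNARE-recycling ATPase Nsf, at -1.19 (SE 0.30) and -0.85 (SE 0.24) without control replicate 3, and Syt11, the synaptotagmin with the highest mean CPM of that list, at -0.53 (SE 0.25). Of 16 vesicle proteins 15 were lower (8 at that p, median -1.26), and 12 without control replicate 3 (6 at that p, median -0.52). Rab3b, at 45.6, 39.6 and 77.6 CPM in the controls and 16.3, 25.3 and 20.5 CPM in the sFlt1 mice, was at -1.04 (SE 0.26) without it, and Syngr1, the vesicle protein synaptogyrin, went from -0.92 to -0.67. Atp6v0a1, a subunit of the vesicle proton pump, had an estimate of -0.46 (SE 0.34), and its groups overlapped.

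Of 22 active zone genes 21 were lower (6 at that p, median -0.98), and 17 without control replicate 3 (3 at that p, median -0.31). Rims1, a scaffold that binds Rab3, was at 29.4 ± 11.5 CPM in the controls and 10.8 ± 3.71 CPM in the sFlt1 mice (SD, n = 3 each), an estimate of -1.45 (SE 0.37). Cacna1a had -1.66 (SE 0.45) and Pclo, the scaffold Piccolo, -0.07 (SE 0.24). Of 16 endocytosis genes 13 were lower (8 at that p, median -0.94), and 12 without control replicate 3 (2 at that p, median -0.44). Dnm1, the dynamin that cuts vesicles from the membrane, had -1.10 (SE 0.30), Pacsin1, which binds dynamin, -1.80 (SE 0.56), and Picalm, a clathrin adaptor used by many cell types, 0.25 (SE 0.19). Of 4 tested vesicular transporters 3 were lower, with a median of -2.58 that was -0.15 without control replicate 3. The GABA transporter Slc32a1 was at 4.18, 2.67 and 72.8 CPM in the controls and at 2.23 CPM or less in the sFlt1 mice, an estimate of -5.00 (SE 1.82) that was -2.05 (SE 1.37) without that library. Slc18a2, the monoamine transporter, was below 1 CPM in every library but control replicate 3, where it was at 4.18 CPM.

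**Figure D5:**
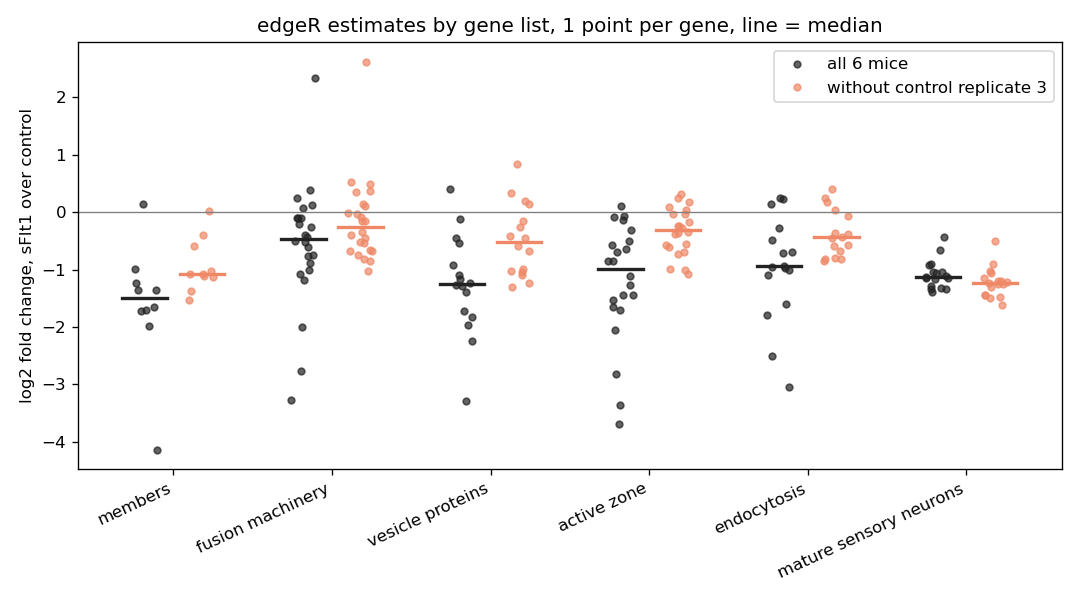
edgeR log2 fold change (y axis) for the tested genes of each list, 1 point per gene with the median as a line, for all 6 mice and without control replicate 3. The medians of the presynaptic lists shown move toward 0 without that library, from -1.50 to -1.07 for the members. That of the mature neuron markers goes from -1.13 to -1.22. Vesicular transporters are not drawn.

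The set can be read beside the lists of cell type markers in the same fit. All 17 mature neuron markers were lower (median -1.13, 9 at an unadjusted p under 0.05), also without control replicate 3 (median -1.22, 4 at that p). Of 22 bulb and brain neuron markers 21 were lower with a median of -2.66, and 14 with a median of -0.59 without it, and of 12 central glia markers 9 and 4. The 12 neuroendocrine and trigeminal nerve markers summed to 970.0, 1051 and 1072 CPM in controls and to 385, 592 and 394 CPM in sFlt1 mice, without overlap. Of the 8 tested, 6 were lower (2 at that p, median -0.76) and 2 higher (1 at that p). Taken singly, 2 of the 8 were lower without overlap and 1 was higher without overlap. Without control replicate 3, 5 were lower and 3 higher (median -0.28). Neuroendocrine cells and nerve endings also use vesicle fusion genes, and their part in the values of the set was not tested. The 9 tested sustentacular cell markers had a median of 0.05. Without control replicate 3 and sFlt1 replicate 3, the libraries richest in central glia transcripts, all 10 presynaptic genes had estimates below 0 (47.5% of all genes), 8 of them at an unadjusted p under 0.05 (6.32%) and 0 after adjustment, and 0 were higher at that p (3.46%). Stx1a was then at -0.04, Snap25 at -1.06 and Sv2a at -0.77.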

How the data were processed

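Gene counts came from 6 libraries of 200 ng RNA each, 1 per mouse. The submitters' processing notes name GRCm39 and the tools HTSeq 2.0.1, TopHat2 2.2.1, DESeq2 1.26.0 and cutadapt 3.5. For strand handling, the sources used here give no setting. The table as deposited holds raw counts, not normalized, in 55414 entries, 6250 of them without values. Per the file headers it also holds DESeq2 results of the authors, log2 fold changes with their adjusted p-values. Another 48 per-sample columns in the deposited tables were not used here.

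Counts were tested with edgeR 4.0.16 in R 4.3.3 (quasi-likelihood, no covariate, low counts removed by filterByExpr, scaling by TMM), Benjamini-Hochberg adjusted over 19899 genes, threshold 0.05. The fit was repeated without control replicate 3 on 20318 genes. DESeq2 1.42.0 and limma voom 3.58.1 were alternatives, and the code was tested on simulated data. Each SE was taken as the log2 estimate over the root of its F. Relative levels use log2 CPM with a prior count of 2, and exact permutation over the 20 assignments of 3 against 3 mice. Profiles were compared among genes with a mean CPM of 10 or more. No libraries agreed within sampling noise: chi-square per degree of freedom was lowest between control replicates 1 and 2, at 76.5.

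The members and lists were chosen with earlier results of these data known. The text names all members and their paralogs, Flt1, Omp and Gad1, of the other presynaptic lists the 2 genes with the smallest p and the 2 with the highest mean CPM, and the 5 genes nearest in profile. Genes that this rule takes from the cell type lists are not named. A few further genes chosen this way are not reported here. Sypl1 was not matched. The labels describe separate mice.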

Additional observations from a re-analysis of the deposited data

How the results depend on the processing

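Under other scaling factors, filters, limma voom and every left-out mouse, 0 of the 10 genes passed the adjusted threshold by edgeR or limma. DESeq2 called 5 of them and 440 genes in all, and 1 and 187 without control replicate 3, an alternative chosen after seeing the data. Leaving out each mouse gave 5 to 8 genes of the set lower at an unadjusted p under 0.05. Over the whole table it gave 0 to 1 genes after adjustment, and 733 to 1468 lower and 481 to 1151 higher before it. Relative to mature neuron markers it gave 0 to 2 genes of the set lower without overlap. No share over all genes stands beside that count, and groups of fewer mice separate more easily. Lower CPM without overlap held for 9.51% of genes tested with all mice and 14.2% without control replicate 3. With immature neuron markers as the reference and all mice, 9 genes of the set were lower without overlap (26.9% of all genes tested), and Stx1a reversed to -0.46. Stx1a also reversed, to -0.042, without the 2 libraries richest in central glia transcripts, also chosen after seeing the data. For these changes the cause was not tested. The other 9 genes kept an estimate below 0 in all 17 alternatives of the fit.

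Same-numbered mice had correlations of their deviations from the group means of 0.03, 0.25 and 0.36, and mice of different numbers of -0.42 to 0.29. As 1 of the 3 pairs was under 0.1 and no label ties the numbers to a litter or batch, the mice were not treated as paired. With the replicate number as a block, 9 genes of the set were lower at an unadjusted p under 0.05, beside 1760 lower and 909 higher over the whole table, and 0 passed. There were only 3 mice a group, 1 control was rich in brain transcripts, and libraries differed by more than sampling noise. What kept these genes from passing by edgeR was not tested.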
